A study of Mus musculus with 5 samples.

Results

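Ribosome footprints that were still lost late in a block of translation are described here, by setting mouse brain slices kept for 60 min in homoharringtonine (HHT) against slices kept for 30 min. The 30 and 60 min libraries are 2 of the 5 libraries of the series, with 1 library a side, and the library made before any exposure (0 min) was not used. Every mRNA whose counts in the 2 libraries added up to at least 100 was compared, which gave 4543 of the 10329 genes in the deposited count table. The 5786 genes below that minimum were not tested.

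Both libraries came from wild type male C57BL/6N mice at postnatal day 28 to 35. Hippocampal-cortical slices, 400 µm thick, were kept for 3 to 4 h after cutting, then given HHT at 20 µM and frozen at 30 or at 60 min. A pool held 10 slices from 2 to 3 mice, and the vehicle was 0.05% DMSO. Vehicle alone at 30 or 60 min was not analysed here, so a change with time in the drug cannot be told apart from a change with time in the dish. Because each side is a single pool, a change with time also cannot be told apart from a difference in the tissue that the pools held. No difference between the pools has a replicate check, no test was possible and no p-value is given.

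HHT binds the ribosome and stops it in the first rounds of peptide bond formation, so that ribosomes already under way finish their protein and leave while none replace them. Run-off empties a coding sequence from its start towards its end, and a long coding sequence takes longer to empty than a short one. What remains on an mRNA after run-off can be ribosomes that move slowly, ribosomes that are stalled, or fragments protected by something else, and the abundance of the mRNA itself can also change with time.

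Total counts were 1504748 at 30 min and 1346175 at 60 min, and a gene that passed the minimum had a median of 136 and 123 counts in these libraries. The unit used below is the deposited signal, which is the count per kilobase of coding sequence with 600 nt left out, divided by 1 factor per library. A log2 ratio is that of the 60 min signal over the 30 min signal, so it is negative where footprints were lost. The interval given beside a ratio is an exact 95% conditional binomial (Clopper-Pearson) interval from the counts. It covers counting error only, and reads had no stated molecular identifiers. Markers of brain tissue were well covered: 29 of 38 neuron identity markers and 29 of 35 astrocyte markers passed the minimum, against 5 of 38 microglia markers and 1 of 23 blood, choroid plexus and ependymal markers. In slices, fewer cells of a type and less RNA per cell cannot be told apart.

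On the deposited scale, most mRNAs lost a little more of their footprints between 30 and 60 min, and to much the same degree. The median log2 ratio over the 4543 genes was -0.30, a ratio of 0.814, and the middle 50% of genes lay between ratios of 0.737 and 0.900. The interval of 2009 genes was wholly below no change, that of 29 genes was wholly above it, and that of 2505 genes included it. In all, 426 genes (9.38%) were no lower at 60 than at 30 min. A loss of at least 2-fold was seen in 28 genes (0.616%). Relative to the median gene, 60 genes (1.32%) were at least 1.5-fold below and 55 genes (1.21%) were at least 1.5-fold above.

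The size of that common loss depended on how the 2 libraries were scaled. The deposited factors gave the ratio of 0.814. Scaling by TMM, by DESeq2 size factors or by total counts set the median log2 ratio at 0.0092, -0.0020 and 0.0072, which moved every gene up by 0.31, 0.29 or 0.30. These scalings set the typical mRNA near no change by construction. With each of them 3 genes (Prkcd, Cers2 and Mdn1) were at least 2-fold lower, against 28 on the deposited scale, and 2360, 2249 and 2337 genes were no lower, against 426. Transcripts of the mitochondrial genome, which are translated inside mitochondria by ribosomes unlike those that HHT binds, gave a further point of reference in the second deposited table. The summed TPM of the 9 of them held there was 16973 at 30 min and 20423 at 60 min, nearly all of it from 6 with at least 100 TPM. Among these, mt-Co1, one of the respiratory chain subunits made in mitochondria, went from 4931 to 6230. Scaling to these transcripts left the deposited ratios nearly where they were, with a shift of -0.02. The origin of the deposited factors is not stated, and they may already rest on such transcripts. The small shift therefore does not decide between the scalings. Differences between mRNAs do not depend on this choice, and the groups below are therefore given relative to the median gene.

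The spread between mRNAs was wider than counting error alone. Over all genes tested, the SD of the log2 ratio was 0.245, against a median counting SD of 0.180 per gene. Among the 534 genes with at least 1000 counts, the SD was 0.194 and the counting SD was 0.0694. The interval of 86.0% of genes covered the all-gene median, while that of 311 genes (6.85%) was wholly below it and that of 323 genes (7.11%) was wholly above it.

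By class median, the late loss was largest in the longest mRNAs, although 13 of the 28 genes at least 2-fold lower were under 8000 nt. Up to a listed coding length of 4000 nt the loss hardly changed with length: the median log2 ratio was -0.25 in 421 genes under 1000 nt, -0.28 in 1062 genes from 1000 to under 1500 nt, -0.29 in 828 genes up to 2000 nt, -0.29 in 1102 genes up to 3000 nt and -0.30 in 534 genes up to 4000 nt. It was -0.33 in 356 genes from 4000 to under 6000 nt and -0.40 in 135 genes from 6000 to under 8000 nt. In the 105 genes tested of 8000 nt and over it was -0.55, a ratio of 0.681. Spearman's rho, taken across genes, between coding length and the log2 ratio was -0.083 in the 4303 genes under 6000 nt and -0.450 in the 240 genes of 6000 nt and over. These correlations describe genes within the same pair of libraries, and genes are not independent replicates.

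**Figure D1:**
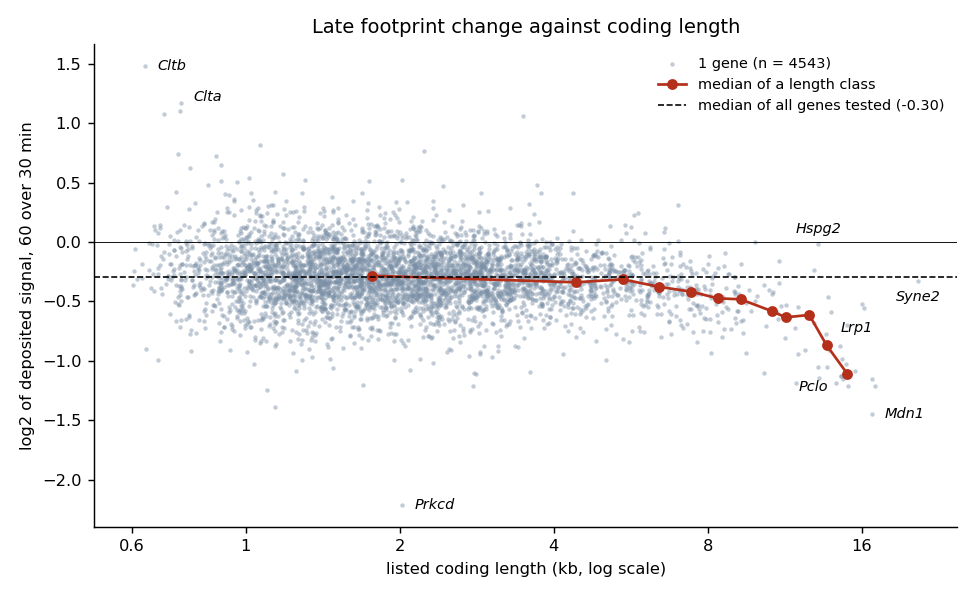
Each point is 1 of 4543 genes, with its listed coding length in kb on a log axis and the log2 ratio of the deposited signal at 60 over 30 min on the vertical axis. Red points join the medians of length classes, which stay near the all-gene median of -0.30 up to several kilobases and reach -1.11 at 14000 nt and over, while Cltb, Clta and Prkcd stand apart among short coding sequences.

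Among these 105 long mRNAs, 90 (85.7%, against 50% of all genes tested) were below the all-gene median, and none was at or above no change. The interval of 49 of them was wholly below that median (6.85% of all genes tested), and that of 56 included it. A loss of at least 2-fold was seen in 15 (14.3%), and 21 (20%) were at least 1.5-fold below the median gene. In the 4438 genes under 8000 nt, the same rules were met by 13 (0.293%) and 39 (0.879%). The loss tended to grow with length within the long group, though not at every step. The median log2 ratio was -0.48 from 8000 to under 9000 nt (33 genes) and -0.48 up to 10000 nt (24 genes). It was -0.58 up to 11000 nt (9 genes), -0.63 up to 12000 nt (10 genes) and -0.61 up to 13000 nt (4 genes). It was -0.87 from 13000 to under 14000 nt (9 genes) and -1.11 at 14000 nt and over (16 genes, a ratio of 0.464). Of the 25 genes of 13000 nt and over, 13 (52%) lost at least 2-fold, as did 10 of the 16 genes (62.5%) of 14000 nt and over. These 2-fold counts hold for the deposited scale: with TMM, DESeq2 or total counts, 1 of the 25 genes, Mdn1, was at least 2-fold lower. Spearman's rho between length and log2 ratio was -0.497 over the 105 genes.

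In the earlier steps the length classes stood in another order. From 5 to 10 min, the median log2 ratio was -0.59 in genes of 2000 to under 3000 nt and 0.30 in genes of 8000 nt and over. From 10 to 30 min, it was deepest from 7000 to under 8000 nt, at -1.50, and was -0.94 from 13000 to under 14000 nt and -0.75 at 14000 nt and over. From 30 to 60 min, it was -0.42, -0.87 and -1.11 in these last 3 classes. The 10 to 30 min and 30 to 60 min steps share the 30 min library, so they are given side by side and no relation between them is drawn.

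**Figure D2:**
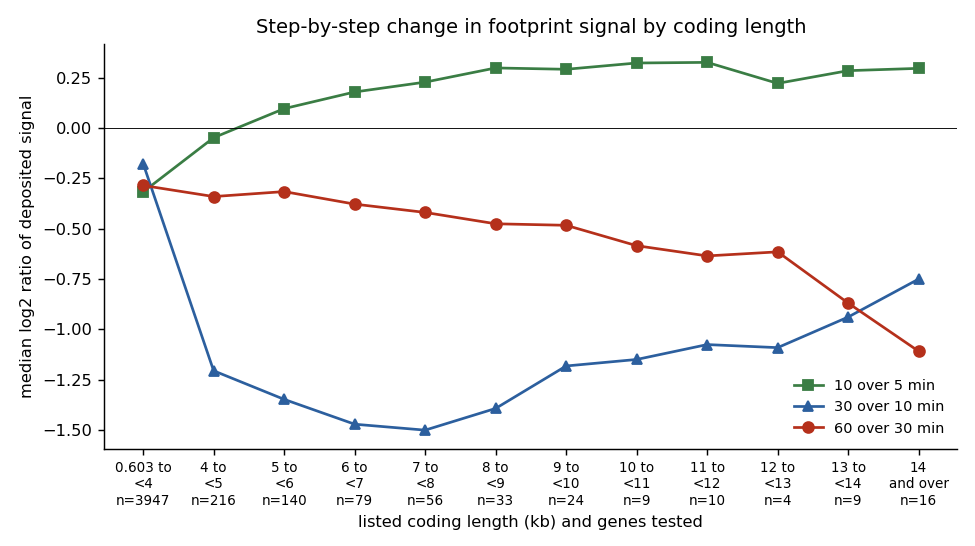
The median log2 ratio of the deposited signal is drawn for 12 classes of listed coding length in kb, with the number of genes tested under each, for 10 over 5 min, 30 over 10 min and 60 over 30 min (1 library per time). The late median is -0.28 under 4 kb and -1.11 at 14 kb and over, and it does not deepen at every class between.

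The share of all footprint counts held by long mRNAs, which does not depend on the scaling of the libraries, was smaller at 60 min. The 145 genes of 8000 nt and over in the whole table, 1.40% of its genes, held 5.01% of the counts at 30 min and 3.94% at 60 min. The 37 genes of 13000 nt and over, 0.358% of the genes, held 2.21% and 1.5%. On the deposited scale, the summed ratio of 60 to 30 min was 0.551 in these 37 genes, 0.638 in the 145 and 0.819 in all genes under 8000 nt.

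The most counted mRNA among those that lost at least 2-fold encodes a scaffold of the presynaptic active zone. Pclo, which encodes piccolo (14592 nt, chromosome 5, 14514906 to 14863465, GRCm38.p6), had 4966, 5628, 3401 and 1718 counts at 5, 10, 30 and 60 min. Per kilobase and scaled, its signal was 368, 486, 276 and 126. The signal rose until 10 min and then fell in both later libraries, and its late log2 ratio was -1.13 (95% counting interval -1.21 to -1.04). Bsn, which encodes bassoon, the partner of piccolo at the active zone, had 5144, 2795 and 1870 counts at 10, 30 and 60 min, a late log2 ratio of -0.72 at 11829 nt. Bsn lies outside the naming rule and was chosen after its values were seen, as was Birc6 below.

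Several ubiquitin ligases were among the rest. Mycbp2, an E3 ligase of axons and synapses (14241 nt), had 1980, 1153 and 559 counts at 10, 30 and 60 min, a late log2 ratio of -1.19 (-1.34 to -1.04). Herc1, a HECT-type ligase (14580 nt), went from 2181 to 1435 and then to 724 counts, with a late ratio of 0.457 (0.417 to 0.500). Huwe1, another HECT-type ligase (13137 nt, chromosome X, 151800785 to 151935417), went from 3706 to 1593 and to 846 counts. Its fall was already large from 10 to 30 min (-1.31) and it lost a further -1.06 (-1.18 to -0.93) by 60 min. Ubr4, a ligase that recognises protein N-termini (15543 nt), went from 2325 to 1152 and to 598 counts, with late and preceding log2 ratios of -1.09 and -1.10. Birc6, an inhibitor of apoptosis that also conjugates ubiquitin (14622 nt), had 1276 and 711 counts at 30 and 60 min, a late log2 ratio of -0.99. All 5 had more signal at 10 than at 5 min and less at each later time.

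Of the 4 histone H3 lysine 4 methyltransferases Kmt2a to Kmt2d, 3 were low. Kmt2d (16767 nt, chromosome 15, 98831669 to 98874077) had 1179, 847 and 421 counts at 10, 30 and 60 min, a late log2 ratio of -1.15 (-1.32 to -0.98) after -0.57 in the step before. Kmt2c (14715 nt) had 543, 378 and 188 counts, with -1.15 (-1.41 to -0.89) after -0.61. Kmt2a (listed at 11892 nt) had 509, 453 and 220 counts, with -1.18 (-1.42 to -0.95) after -0.26. Kmt2b (8169 nt), chosen after its values were seen, was at the typical mRNA, with 87 counts at 30 min and 78 at 60 min and a late log2 ratio of -0.30 (-0.76 to 0.16). Kmt2a was the lowest member of both the chromatin list and the list of FMRP targets.

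Long mRNAs of other functions behaved likewise. Ryr2, the calcium release channel of the endoplasmic reticulum (14901 nt), had 2645, 1385 and 751 counts at 10, 30 and 60 min, with a late log2 ratio of -1.03 (-1.16 to -0.90). Ahnak, a very large scaffold protein (16971 nt), had 599, 514 and 245 counts, with -1.21 (-1.44 to -0.99) after -0.31. Vps13d, a lipid transfer protein (13170 nt), had 1100, 483 and 241 counts, with -1.15 (-1.37 to -0.92). Mdn1, an AAA ATPase that matures the large ribosomal subunit (16749 nt), had 232, 168 and 68 counts and the deepest late log2 ratio of the long mRNAs tested, -1.45 (-1.88 to -1.03). The uncharacterised name 4932438A13Rik (15018 nt) had 1388, 840 and 400 counts, with -1.21 (-1.39 to -1.04). Of the 14 genes with the lowest upper bound of the interval among all genes tested, 13 are these long mRNAs, namely all those given above except Bsn, Birc6 and Kmt2b. In the TPM table, all 13 were lower at 60 than at 30 min, with ratios from 0.135 to 0.772 and a median of 0.40. Both ends of that range stood far from the ratios of deposited signal. Kmt2d had 69, 96 and 13 TPM at 10, 30 and 60 min, so that it was higher at 30 than at 10 min. 4932438A13Rik had 103, 101 and 78 TPM, a late ratio of 0.772 against 0.431 on the deposited scale. TPM is scaled to a fixed total per library and the deposited signal is not, so part of such a gap is one of scale. With total counts, the late log2 ratio of 4932438A13Rik was -0.91 in place of -1.21. For 5 of the 13 (Kmt2a, Kmt2c, Kmt2d, Mycbp2 and Pclo), TPM was higher at 30 than at 10 min, unlike their deposited signal. Total counts were 2022152 at 10 min and 1504748 at 30 min, with deposited factors of 0.828 and 0.882. The 2 scales therefore differ over this step, and a rise on one can be a fall on the other. Pclo had 168 TPM at 10 min and 183 at 30 min, and Mycbp2 had 77 and 79. Of the 25 genes of 13000 nt and over, 21 had a lower TPM at 60 than at 30 min. Over all 4543 genes tested, 2080 were no lower in TPM.

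Long mRNAs differed among themselves. Of the 25 genes of 13000 nt and over, 6 had a log2 ratio above -0.6, and 2 of them, Hspg2 and Syne2, had an interval that included the all-gene median. These 6 genes, and Dmd and Lrp1, were chosen after their values were seen. Dync1h1, the heavy chain of cytoplasmic dynein (13935 nt), had 4458, 4007 and 2940 counts at 10, 30 and 60 min, with log2 ratios of -0.24 and then -0.59 (-0.66 to -0.52). Macf1, Dst and Plec, which encode spectraplakins and plectin, linkers between cytoskeletal filaments, went from 1120 to 860, from 1405 to 1057 and from 1117 to 894 counts over the late step. Their late log2 ratios were -0.52, -0.55 and -0.46, and their ratios from 10 to 30 min were -0.21, -0.27 and -0.26. Syne2, which encodes a nesprin that ties the nucleus to the cytoskeleton and has the longest coding sequence tested (20625 nt), had 127, 109 and 96 counts at 10, 30 and 60 min, with a late log2 ratio of -0.33 (-0.74 to 0.08). All 5 of these cytoskeletal mRNAs had lost less than Pclo from 10 to 30 min (-0.31 to -0.21 against -0.82), and their late intervals lay above that of Pclo. A small loss from 10 to 30 min was not particular to them. Ahnak and Kmt2a had ratios of -0.31 and -0.26 in that step and of -1.21 and -1.18 in the late step. No relation between the 2 steps is drawn.

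The shorter Dmd, which encodes dystrophin (listed at 11037 nt), was nearly level in counts, with 234, 233 and 230 at 10, 30 and 60 min, a late log2 ratio of -0.16 (-0.43 to 0.11). Hspg2, which encodes the basement membrane proteoglycan perlecan (13152 nt), differed from these: it fell from 288 to 160 counts by 30 min and then had 175 counts, a late log2 ratio of -0.01 (-0.33 to 0.30). Lrp1, an endocytic receptor (13638 nt) and the most counted gene of 13000 nt and over, had 10472, 6296 and 4065 counts, and its late log2 ratio of -0.77 (-0.83 to -0.72) lay between both sets. The intervals of Lrp1 and Pclo do not overlap.

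**Figure D3:**
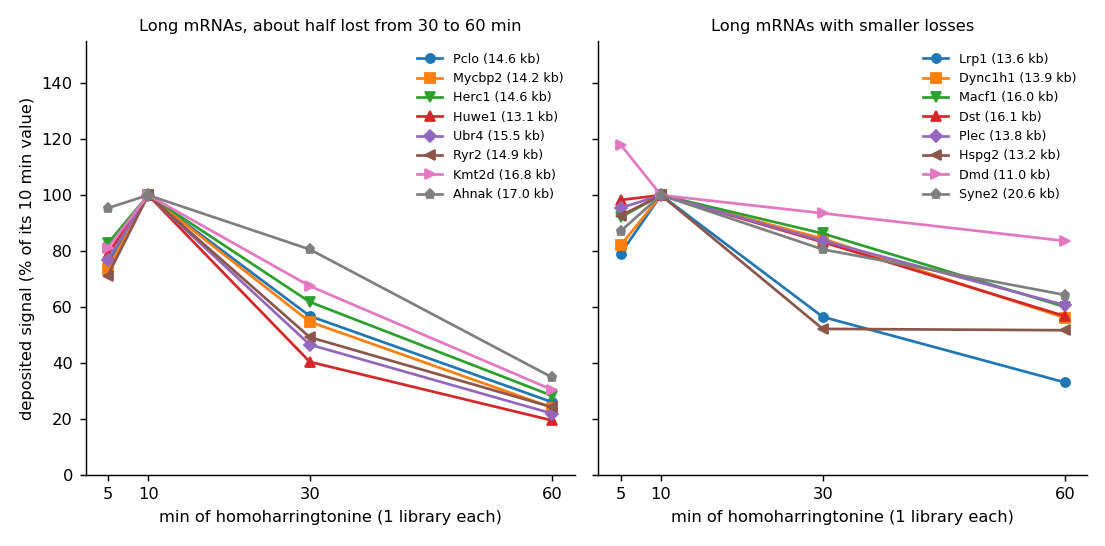
The deposited signal of 16 long mRNAs is drawn against min in HHT on a linear axis, as a percentage of each gene's 10 min value, with 1 library per time and the listed coding length in the key. The 8 mRNAs on the left have log2 ratios from -1.21 to -1.03 from 30 to 60 min. Their preceding ratios, from 10 to 30 min, run from -1.31 (Huwe1) to -0.31 (Ahnak). On the right, Dync1h1, Macf1, Dst, Plec, Dmd and Syne2 have smaller late losses, after ratios of -0.31 (Syne2) to -0.10 (Dmd). Lrp1 and Hspg2, also on the right, have late ratios of -0.77 and -0.01 after larger preceding losses of -0.82 and -0.94.

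Under 8000 nt, the deepest late losses were mostly in mRNAs with few counts, not far above the minimum of 100. Genes with 100 to under 200 counts scattered most of all depth classes, with an SD of the log2 ratio of 0.294. Prkcd, which encodes protein kinase C delta (2025 nt, chromosome 14, 30595353 to 30626414), had 243, 111, 105 and 25 counts at 5, 10, 30 and 60 min. Its log2 ratio was -0.17 from 10 to 30 min, and it had the deepest late log2 ratio of all genes tested, -2.21 (-2.90 to -1.57), a ratio of 0.216. In the second deposited table its TPM was 34, 36 and 9 at 10, 30 and 60 min. Other protein kinase C isoforms of like length, chosen after the values of Prkcd were seen, did not share this loss: the late log2 ratio was -0.32 for Prkcb and -0.34 for Prkce, both with intervals that included the all-gene median, and that of Prkca, -0.09 (-0.29 to 0.11), lay above it.

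Cers2, a ceramide synthase for very long acyl chains (1143 nt), had 119, 109 and 46 counts at 10, 30 and 60 min, with a late log2 ratio of -1.39 (-1.92 to -0.88). Tapt1, a transmembrane protein (1695 nt), had 63, 77 and 37 counts, with -1.20 (-1.81 to -0.62). From 10 to 30 min their log2 ratios had been -0.22 and 0.20. Prpf4b, a kinase of pre-mRNA splicing (3024 nt), had 509, 197 and 111 counts, with log2 ratios of -1.46 from 10 to 30 min and -0.97 (-1.32 to -0.63) from 30 to 60 min. Besides Prkcd, Cers2 and Tapt1, the genes under 8000 nt that lost at least 2-fold were the 10 genes Alg11, Dgcr8, Msantd4, Pcdhgb7, Phf14, Polr2m, Ptpn4, Trf, Vat1l and Zfp804a. They are named as the whole of this count. Trf went from 407 to 213 counts, and the others had 68 to 145 counts at 30 min and 34 to 69 at 60 min.

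The more counted mRNAs under 8000 nt that the naming rule gave had smaller late losses. Prrc2a, an RNA-binding protein (6477 nt), had 1223 counts at 30 min and 775 at 60 min, with a log2 ratio of -0.80 (-0.93 to -0.67). Ank3, which encodes ankyrin-G of the axon initial segment (listed at 5181 nt, although neurons are known to make much longer forms), had 2523 and 1713 counts, with -0.70 (-0.79 to -0.61). Its relative Ank2, chosen after its values were seen, had 4674 and 3864 counts, with -0.42 (-0.48 to -0.36).

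Of the 6 most counted mRNAs at 30 min, 5 are described. App and Hspa8, the amyloid precursor and a constitutive chaperone, had log2 ratios of -0.31 and -0.33, close to the typical mRNA. The microtubule-associated proteins were lower: Map1b had 8469 and 7183 counts (-0.38), Map1a had 11685 and 9512 (-0.44), and Map2 had 10404 and 8312 (-0.47, -0.51 to -0.42). The listed coding length of Map2 was 1404 nt, that of its short form. All 3 had intervals wholly below the all-gene median.

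**Figure D4:**
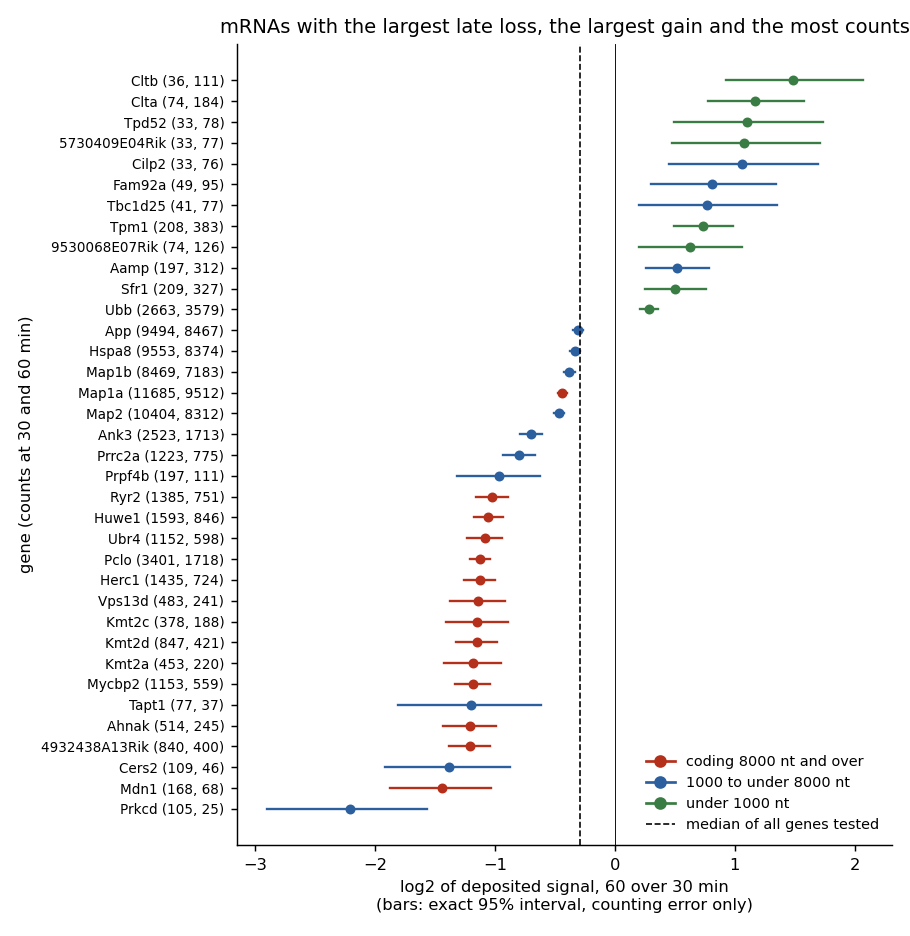
The log2 ratio of the deposited signal at 60 over 30 min is drawn with its exact 95% counting interval for the mRNAs with the lowest upper bounds, the highest lower bounds and the most counts, and for the lowest of each length class, with counts at 30 and 60 min in brackets and 2 genes left out. Long coding sequences (red) other than Map1a lie from -1.45 to -1.03, the most counted mRNAs lie near the dashed all-gene median, and 8 of the 12 gains are in coding sequences under 1000 nt (green).

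On the deposited scale, 29 genes had an interval wholly above no change from 30 to 60 min. Of the 12 genes with the highest lower bound, 8 had coding sequences under 1000 nt. Over all genes tested the excess of short ones was smaller: 421 of the 4543 were under 1000 nt, as were 72 of the 426 that were no lower and 18 of the 55 at least 1.5-fold above the median gene. The clathrin light chains, which coat endocytic vesicles, had the largest gains. Cltb (636 nt, chromosome 13, 54592386 to 54611373) had 37, 36, 36 and 111 counts at 5, 10, 30 and 60 min, a late log2 ratio of 1.48 (0.93 to 2.07). Clta (747 nt, chromosome 4, 44003816 to 44032846) had 67, 54, 74 and 184 counts, with 1.17 (0.77 to 1.58). In counts, both were nearly level over the 3 earlier libraries and higher at 60 min. The TPM table gave the same direction for the late step, with 264, 292 and 970 TPM for Cltb and 253, 584 and 2974 TPM for Clta at 10, 30 and 60 min. The heavy chain Cltc, chosen after the values of both were seen, had 6686 and 6037 counts, a log2 ratio of -0.29, close to that of the typical mRNA. Only 36 nt of Cltb and 147 nt of Clta remain in the counted window once the 600 nt are left out.

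Tpm1, an actin-binding tropomyosin (738 nt), had 208 counts at 30 min and 383 at 60 min, with a log2 ratio of 0.74 (0.49 to 0.99). Ubb, a polyubiquitin gene (918 nt), was the deepest of the gains, with 2203, 1794, 2663 and 3579 counts in time order and a late log2 ratio of 0.28 (0.21 to 0.36). Its log2 ratio from 10 to 30 min was 0.48, and its TPM went from 4343 to 10244 in the late step. Near-identical ubiquitin repeats can share reads within this gene and with other ubiquitin genes, so how its reads were counted is uncertain.

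Aamp, a WD-repeat protein, had 197 counts at 30 min and 312 at 60 min (0.52, 0.26 to 0.79), and Sfr1, a factor of homologous recombination, had 209 and 327 (0.50, 0.25 to 0.76). The remaining genes of this group, Tpd52, 5730409E04Rik, Cilp2, Fam92a, Tbc1d25 and 9530068E07Rik, had 33 to 74 counts at 30 min and 76 to 126 at 60 min, with log2 ratios from 0.63 to 1.10.

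Short counted windows scattered more. The SD of the log2 ratio was 0.459 in 31 genes with a window under 100 nt and 0.351 in 90 genes from 100 to under 200 nt, against 0.226 in 2101 genes from 1000 to under 3000 nt. Of these genes, 6.45%, 7.78% and 0.809% were at least 1.5-fold above the median gene. The 55 genes at least 1.5-fold above had a median coding length of 1185 nt, against 1971 nt over all genes tested, and 42 of them had under 200 counts. The 60 genes at least 1.5-fold below had a median coding length of 2808 nt, and 38 of them had under 200 counts. The part of window length and depth in these gains was not tested.

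By list median, oligodendrocyte mRNAs lost most among the cell types. For each list below, members named besides the lowest and the highest were chosen after their values were seen. Oligodendrocytes make myelin, and 15 of 37 listed markers passed the minimum. Their median lay -0.23 from that of all genes, and 13 of 15 were below it (50% of all genes tested). The interval of 7 was wholly below it and that of 1 wholly above (6.85% and 7.11% of all genes tested). Trf, the iron carrier transferrin, had 407 and 213 counts at 30 and 60 min, a log2 ratio of -1.08 (-1.32 to -0.83). Cnp and Mag, an enzyme and an adhesion protein of myelin, went from 433 to 271 counts (-0.82) and from 647 to 433 (-0.72). Olig1, a lineage transcription factor, went from 72 to 42 counts (-0.92). Summed over the 31 members in the count table, counts went from 8029 to 6040, a pooled log2 ratio of -0.55 (-0.60 to -0.51). Of the genes shared with precursor cells, Vcan, a matrix proteoglycan, went from 87 to 54 counts (-0.83). Pdgfra, a growth factor receptor, had 114 and 117 counts (-0.11), and Cspg4, a proteoglycan shared with pericytes, had 71 and 97 (0.31, -0.15 to 0.77). Mbp, the myelin basic protein, is held by the TPM table alone, at 22644 and 22887 TPM.

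Astrocyte mRNAs were a little lower than the typical mRNA. Of 29 members tested, 23 were below the all-gene median, the list's median was -0.13 from it, and 11 intervals were wholly below against 2 above. Over all genes tested, 6.85% of intervals were wholly below and 7.11% wholly above. Intervals narrow as counts rise, so lists with many counts leave the median out more often. Kcnj10, a potassium channel that buffers extracellular potassium, had 210 counts at 30 min and 138 at 60 min (-0.75, -1.07 to -0.43), while the neurotensin receptor Ntsr2 had 478 and 559 (0.08, -0.10 to 0.26). No member of this list was 1.5-fold from the median gene. Neuron identity markers lay the other way, with a median 0.08 above that of all genes and 11 of 29 below it. Of their intervals, 11 were wholly above and 1 wholly below (7.11% and 6.85% of all genes tested). Slc17a6, a vesicular glutamate transporter, was their lowest member, with 134 and 95 counts (-0.64), and the transcription factor Neurod2 was their highest, with 138 and 179 (0.23, -0.10 to 0.56).

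Few markers of the remaining cell types passed the minimum. The 5 microglia markers tested had a median 0.12 above that of all genes, and they are mostly lysosomal proteins that other cells also make, such as Lgmn with 324 and 260 counts (-0.46). The 28 microglia markers in the count table that did not pass the minimum summed to 148 counts at 30 min and 157 at 60 min. The 10 endothelial and mural markers tested had a median -0.02 from that of all genes and spread from Mcam, an adhesion molecule with 74 and 41 counts (-0.99, -1.58 to -0.43), to Cspg4. Summed over the 31 members in the count table, counts went from 3737 to 3997, a pooled log2 ratio of -0.05 (-0.11 to 0.02), above the all-gene median. Bsg, which encodes basigin and had 2025 and 2450 of these counts (0.13, 0.05 to 0.22), made up most of the sum. Whether these differences reflect cell numbers, mRNA levels or ribosomes was not tested.

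By list median, activity-induced mRNAs lay above the typical mRNA, but their members differed. Their transcripts are switched on within minutes by neuronal firing. Of 18 immediate early and activity-induced genes tested (35 listed), 11 were above the all-gene median and 7 below it (50% of all genes tested were below), 6 were no lower at 60 than at 30 min, and the list's median was 0.17 above that of all genes. The interval of 7 was wholly above that median (7.11% of all genes tested) and that of 1 wholly below. Egr1, a zinc finger transcription factor, had 1364, 936, 1019 and 1032 counts in time order, a late log2 ratio of -0.12 (-0.25 to 0.00). The AP-1 subunits differed among themselves. Fosb had 61 counts at 30 min and 98 at 60 min (0.54, 0.07 to 1.03), Jun had 113 and 137 (0.14, -0.23 to 0.51), and Fos had 249 and 196 (-0.49, -0.77 to -0.21). Ptgs2, the inducible cyclooxygenase, was lowest, with 158 and 99 counts (-0.82, -1.19 to -0.45). Arc, a regulator of synaptic plasticity, was at the median gene with 445 and 399 counts (-0.30). The 10 feedback inhibitors of signalling tested, such as dual-specificity phosphatases, had a median 0.14 above that of all genes, with 8 above it, from Dusp1 with 124 and 101 counts (-0.44) to Dusp5 with 67 and 76 (0.04). None of these 10 had an interval that left the all-gene median out.

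The lists of the translation machinery had medians within 0.12 of the typical mRNA. Initiation factors were slightly lower than the typical mRNA, with 17 of 27 below it and a median -0.12 from that of all genes. Pabpc1, the poly(A)-binding protein, had 344 counts at 30 min and 237 at 60 min (-0.68, -0.93 to -0.44), and Eif3f, a subunit of the factor that recruits the small ribosomal subunit, had 264 and 283 (-0.04, -0.29 to 0.20). Elongation and termination factors had a median 0.10 above that of all genes, from the recycling factor Abce1 with 174 and 125 counts (-0.62, -0.96 to -0.28) to Ascc3 with 56 and 67 (0.12, -0.42 to 0.65). Of the ribosomal proteins, most of which have short coding sequences, 14 of 28 could be tested. Of these 14, 11 were below the all-gene median, from Rpl7a with 105 and 68 counts (-0.77) to Rpl5 with 81 and 77 (-0.22), and the list's median was -0.10 from that of all genes. Genes for ribosomal proteins have many near-identical pseudogenes, so their counts are uncertain where reads were shared.

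In the lists of motor proteins, FMRP targets and chromatin modifiers, the long members were lower than the short ones, as were long mRNAs in general. Of all 105 genes tested of 8000 nt and over, 90 (85.7%) were below the all-gene median. The median of these 105 genes was -0.26 from that of all genes. Motor proteins, spectrins and giant scaffolds had a median -0.12 from that of all genes over 61 members, with 10 at least 1.5-fold below. That rule was met by 1.32% of all genes tested and by 20% of those of 8000 nt and over. Its 24 members of 8000 nt and over had a median of -0.49 from that of all genes, with 23 below it, whereas its 37 shorter members had one of -0.0058, with 19 below it. Sptb, the erythroid beta spectrin (6990 nt), was the highest member, with 302 and 336 counts (0.01, -0.22 to 0.24). FMRP, the protein lost in fragile X syndrome and the subject of the series, binds many long neuronal mRNAs. The 113 commonly cited FMRP targets tested had a median -0.07 from that of all genes: -0.42 in the 28 members of 8000 nt and over, 25 of them below, and -0.04 in the 85 shorter members, 53 of them below.

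Chromatin modifiers and remodellers divided in the same way, with a median of -0.34 from that of all genes in 11 members of 8000 nt and over, all 11 below it, and of -0.03 in 62 shorter members, 32 of them below. Of the 73 members tested, Kmt2a, Kmt2c and Kmt2d were the 3 at least 1.5-fold below (1.32% of all genes tested). Setd2, the histone H3 lysine 36 methyltransferase, had 988, 340 and 258 counts at 10, 30 and 60 min, a late log2 ratio of -0.54 (-0.78 to -0.30), and was chosen after its values were seen. Setd1a was the highest member, with 57 and 69 counts (0.13, -0.39 to 0.67). Collagens and extracellular matrix genes did not divide in this way. The 6 of their 34 tested members of 8000 nt and over had a median of -0.03 from that of all genes, with 3 below it, and the 28 shorter members had a median 0.06 above, with 12 below.

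**Figure D5:**
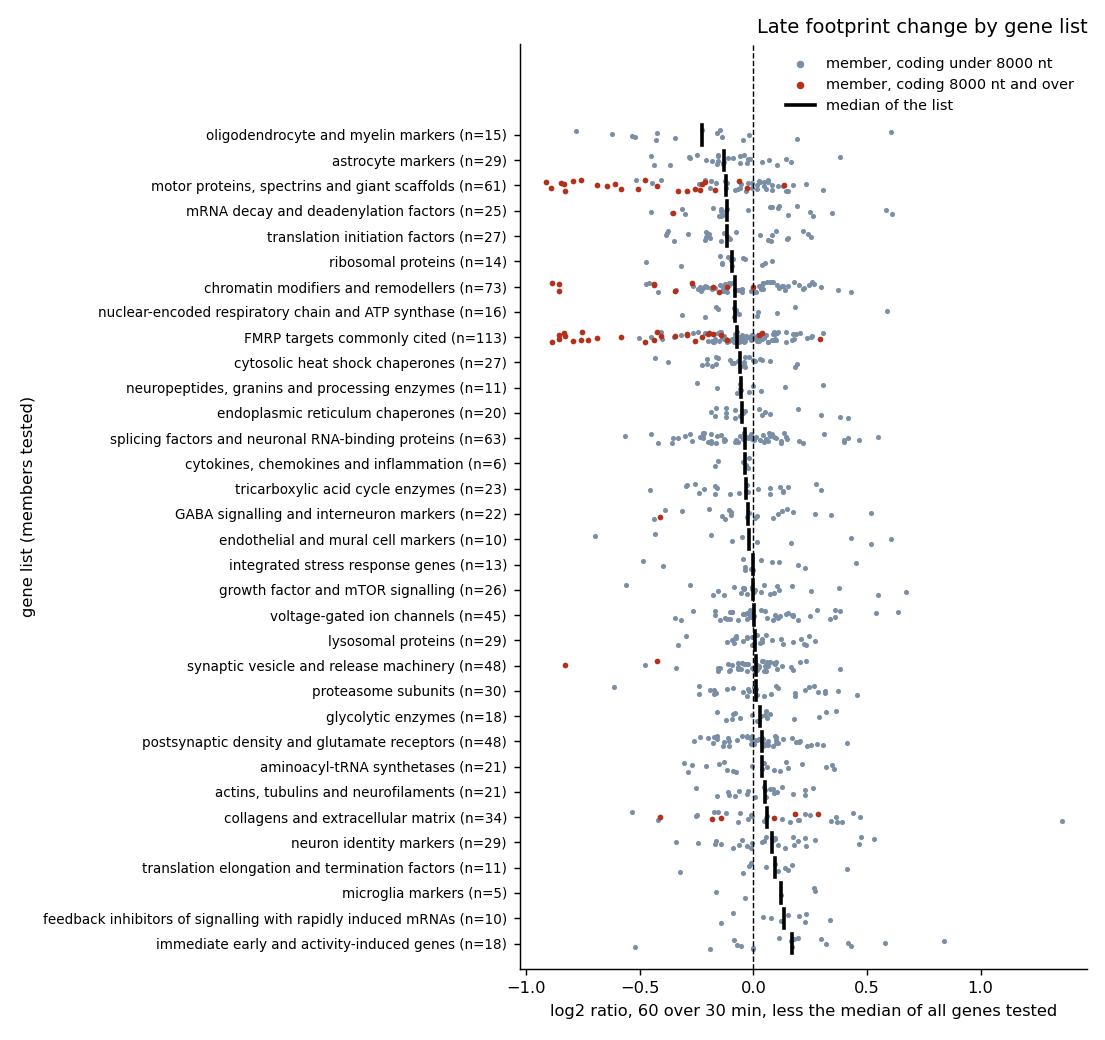
Each row is 1 of 33 gene lists with at least 5 members tested, and each point is a member's log2 ratio of 60 over 30 min less the median of all genes tested. Black bars are list medians, which run from -0.23 for oligodendrocyte markers to 0.17 for immediate early genes, and the red points, members of 8000 nt and over, form the left tail of the motor protein, chromatin and FMRP target lists.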

How the data were processed

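The members, lists and comparisons were chosen with earlier results of these data known. Footprint reads were sequenced at 75 bp, per the labels' protocols, after digestion with RNases A and T1 and sucrose gradients of 10 to 50%. SAMtools 0.0.19, TopHat2 2.0.9, Bowtie2 2.1.0, Trimmomatic 0.32 and cutadapt 1.7.1 are named, with build mm10, per the submitters' processing notes. The step each tool served was not given in the sources used here. As deposited, the count table holds expected counts made with RSEM, listed as whole numbers, for 10329 genes with coding sequences of 603 to 24099 nt, with the sequence ends left out. The deposited signal equals this count per kilobase (length less 600 nt) divided by a factor of 0.882 at 30 min and 0.973 at 60 min, of unstated origin. A second deposited table gives a score, TPM rounded to whole numbers, for 18527 genes. Another 7 columns were not used.

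Ratios carry no pseudocount and need at least 100 counts in both libraries together. Intervals, medians and counts were computed in Python 3.11.15 with pandas 2.3.3 and scipy 1.17.1, and scalings with edgeR 4.0.16 and DESeq2 1.42.0 in R 4.3.3. The scripts were tested on simulated data. Positions are RefSeq's on GRCm38.p6, and 10293 transcripts matched. Named genes were the 14 with the lowest upper interval bound, the 12 with the highest lower bound, the 6 most counted at 30 min, the lowest by upper bound of each length class, and the lowest and highest of each of 33 lists (of 35) with at least 5 members tested. Some genes that this rule names are not reported here. Any other gene is said to be chosen after its values were seen. Alternatives were other scalings, other count minimums, a prior count of 2 and the TPM table.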

Additional observations from a re-analysis of the deposited data

How the results depend on the processing

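No paired analysis was possible because each time has 1 library and the labels give no replicate numbers. Relative to the median gene, coding sequences of 8000 nt and over had a median from -0.28 to -0.23, oligodendrocyte markers from -0.34 to -0.15 and immediate early genes from 0.12 to 0.17 over the 10 alternatives run for each. List or class medians changed sign 13 times, each from a value of at most 0.025 in size. Scalings moved the common level alone: the median log2 ratio over all genes was 0.0092 with TMM, -0.0020 with DESeq2 size factors and 0.0072 with total counts. In the TPM table, which also changed the differences between genes, the median was -0.039. Genes at least 2-fold lower numbered 3 with each of these 3 scalings, 99 of 6389 at a minimum of 50 counts, 14 of 1477 at 400 counts, 708 of 10177 with no minimum beyond 1 count in each library, and 55 in the TPM table, against 28. Genes no lower numbered 2360, 2249 and 2337 with the 3 scalings, 821, 63 and 2030 at the 3 minimums, and 2080 in the TPM table, against 426. Genes at least 1.5-fold below the median numbered 176, 17 and 962 at the 3 minimums and 140 in the TPM table, against 60, and those at least 1.5-fold above numbered 182, 8 and 921, and 166, against 55. More genes tested at lower depth widen both tails by construction. The oligodendrocyte median was -0.34 from that of all genes at 400 counts (9 genes), and the endothelial median was -0.19 with no minimum (29 genes). Under 8000 nt, an alternative chosen after seeing the data, the motor protein median was -0.0058. The other 423 values of medians and counts moved by at most 0.1 or by less than 1.5 times. Depth limits single genes at the minimum of 100 counts most. The presence of AU-rich elements in 3′ UTRs and the GC content of codons were planned, but not run, since transcript sequences were not analysed here.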

Other observations

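The medians of the synaptic lists lay within 0.04 of the typical mRNA between 30 and 60 min. Of the 48 postsynaptic density and glutamate receptor genes tested, 19 were below the all-gene median, and the list's median was 0.04 above it. Gria4, an AMPA receptor subunit, was the lowest of them, with 257 counts at 30 min and 193 at 60 min (log2 ratio -0.56, 95% counting interval -0.83 to -0.28), and the synaptic scaffold protein Begain was the highest, with 177 and 212 (0.12, -0.18 to 0.41). Synaptic vesicle and release genes had a median 0.01 above that of all genes, with Pclo as their lowest member and Stx1a, a SNARE protein of vesicle fusion, as their highest, with 188 and 220 counts (0.08, -0.20 to 0.37). Of the lists of energy metabolism, glycolytic enzymes had a median 0.03 above that of all genes, with 7 of 18 below it. Tricarboxylic acid cycle enzymes had a median of -0.03 from that of all genes, with 14 of 23 below it, and the nuclear-encoded respiratory chain and ATP synthase had one of -0.08 from that of all genes, with 11 of 16 below it. Voltage-gated ion channels, proteasome subunits and lysosomal proteins had medians 0.0025, 0.01 and 0.0063 above that of all genes. Within the proteasome, Psmd14, a deubiquitinase of the lid, had 102 and 60 counts (-0.91, -1.39 to -0.43), and the lid subunit Psmd3 had 189 and 233 (0.16, -0.12 to 0.44).

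Of the GABA-related genes, the receptor subunit Gabra4 was the lowest, with 211 counts at 30 min and 140 at 60 min (-0.73, -1.05 to -0.42). Among splicing factors and neuronal RNA-binding proteins, Mbnl1 had 74 and 45 counts (-0.86, -1.43 to -0.31) and Hnrnpd had 248 and 326 (0.25, 0.01 to 0.50). Among growth factor and mTOR signalling genes, the kinase Gsk3a was the highest, with 291 and 417 counts (0.38, 0.16 to 0.60). These genes are extremes of their lists by the naming rule, so their distance from the typical mRNA is built into the choice.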
